A study of Mus musculus with 6 samples.

Results

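The genes described here are 7 genes for dual-specificity phosphatases that act on MAP kinases, Dusp1, Dusp3, Dusp5, Dusp6, Dusp8, Dusp10 and Dusp16, taken by name from a table of 37991 mouse genes. All 7 were found, and all 7 passed the filter on low counts that left 14686 genes for testing. They were measured in whole liver of 12-week-old males by poly(A) RNA-seq with a directional kit, in 3 mice that lack Zpbp2 (Zpbp2 KO, the B6.Zpbp2-/- strain) and 3 wild-type C57BL/6J mice (WT). The knockout is carried on the C57BL/6J background, and the labels do not describe how the allele was made. Zpbp2 encodes a protein of the sperm head involved in fertilization, and the series title links its loss to a milder asthma-like state and altered lipid metabolism. The libraries labelled Zpbp2 KO held 0, 0 and 0 Zpbp2 counts, against 4, 13 and 7 in the WT libraries. Total counts ran from 47821653 to 51328826 in Zpbp2 KO libraries and from 37904891 to 52955687 in WT libraries.

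MAP kinases (ERK, JNK and p38) are switched on when an upstream kinase phosphorylates a threonine and a tyrosine in their activation loop. Dual-specificity MAP kinase phosphatases remove both phosphates and so end the signal. Many of their genes are themselves switched on by the pathway they end, as a feedback brake. In liver these enzymes are known to act on stress, inflammatory and metabolic signalling. Dusp1, Dusp5, Dusp6, Dusp8, Dusp10 and Dusp16 are typical members with a kinase-binding domain, while Dusp3 is an atypical member without one.

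The stretch around the transcription start is printed for the 3 genes whose promoters held one of 2 sites for signal-regulated factors, the cAMP response element TGACGTCA or the CArG box bound by serum response factor. Each stretch holds 250 bases before and 50 after the start as RefSeq places it, on GRCm38.p6, and is written 5′ to 3′ on the gene's strand with the sites in capitals. The Dusp1 stretch lies at chr17:26508423-26508722 on the minus strand, that of Dusp8 at chr7:142095235-142095534 on the minus strand, and that of Dusp5 at chr19:53528895-53529194 on the plus strand.
Dusp1: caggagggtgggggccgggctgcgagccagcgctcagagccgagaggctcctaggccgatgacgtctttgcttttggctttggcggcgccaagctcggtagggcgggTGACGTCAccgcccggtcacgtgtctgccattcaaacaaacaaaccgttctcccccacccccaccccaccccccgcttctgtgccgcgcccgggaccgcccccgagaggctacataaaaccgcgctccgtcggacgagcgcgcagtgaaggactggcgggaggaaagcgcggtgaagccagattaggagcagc
Dusp8: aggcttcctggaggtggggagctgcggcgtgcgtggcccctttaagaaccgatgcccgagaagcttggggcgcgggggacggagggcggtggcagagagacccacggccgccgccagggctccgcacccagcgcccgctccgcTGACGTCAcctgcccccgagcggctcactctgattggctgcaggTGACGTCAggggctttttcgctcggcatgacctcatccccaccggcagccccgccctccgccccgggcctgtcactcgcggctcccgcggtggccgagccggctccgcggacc
Dusp5: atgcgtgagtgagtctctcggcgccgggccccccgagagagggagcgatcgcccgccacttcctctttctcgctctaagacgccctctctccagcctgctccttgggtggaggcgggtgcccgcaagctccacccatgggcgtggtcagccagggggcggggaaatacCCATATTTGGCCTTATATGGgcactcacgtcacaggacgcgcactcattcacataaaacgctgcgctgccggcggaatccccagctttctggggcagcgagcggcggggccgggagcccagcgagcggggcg
The motif TGACGTCA, which reads the same on both strands, occurred in 2 of the 7 promoters, at base -143 of Dusp1 and at bases -107 and -63 of Dusp8, counted from the start. It occurred in 1.79% of the 32851 promoters in the table. The CArG box occurred in 1 of the 7, with 2 adjoining matches in Dusp5 at bases -82 and -72, and in 1.63% of all promoters. The shorter motif TGACG, searched on both strands and contained in each TGACGTCA, occurred in the promoters of Dusp1, Dusp5, Dusp8 and Dusp16 and in 20.8% of all promoters. The AP-1 motif TGAGTCA, searched on both strands, occurred in 0 of the 7 and in 5.2% of all. A match shows only that these letters are present.

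Levels between genes were compared per length, as TMM-scaled counts-per-million values (CPM) divided by the kilobases of exon. In Zpbp2 KO liver the order by mean was Dusp3 at 7.64 ± 1.85, Dusp6 at 7.53 ± 3.31, Dusp1 at 7.04 ± 3.48, Dusp16 at 5.46 ± 0.454, Dusp10 at 1.18 ± 0.170, Dusp5 at 0.295 ± 0.126 and Dusp8 at 0.250 ± 0.0729 CPM per kb (SD, n = 3). There the mean ± SD ranges of the first 4 overlapped, those of Dusp3 and Dusp16 by little, and with the length of the longest transcript in place of the exon length Dusp1 came first at 10.1 CPM per kb and Dusp3 lay behind Dusp16, at 8.05. In WT liver the order was Dusp1 at 15.4 ± 4.68, Dusp6 at 13.3 ± 1.53, Dusp3 at 10.5 ± 1.90, Dusp16 at 5.98 ± 0.335, Dusp10 at 1.65 ± 0.306, Dusp5 at 0.528 ± 0.0839 and Dusp8 at 0.523 ± 0.116 CPM per kb. The mean ± SD ranges of the first 3 overlapped, as did those of Dusp5 and Dusp8 at the low end. Summed over the 7 genes, the level was 27.7, 34.8 and 25.6 CPM per kb in Zpbp2 KO replicates 1 to 3 and 46.5, 49.8 and 47.1 in WT replicates 1 to 3. Dusp1 took 21.8%, 31.3% and 16.3% of that sum in Zpbp2 KO livers and 23.4%, 40.6% and 31.9% in WT livers. Dusp16 took 21.5%, 15.2% and 19.98% in Zpbp2 KO livers and 12.0%, 12.2% and 13.3% in WT livers, without overlap. When a sum falls, the share of a gene that differs less than the others must rise. The CPM values of Dusp16 itself overlapped between the groups, so its share is no separate result.

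**Figure D1:**
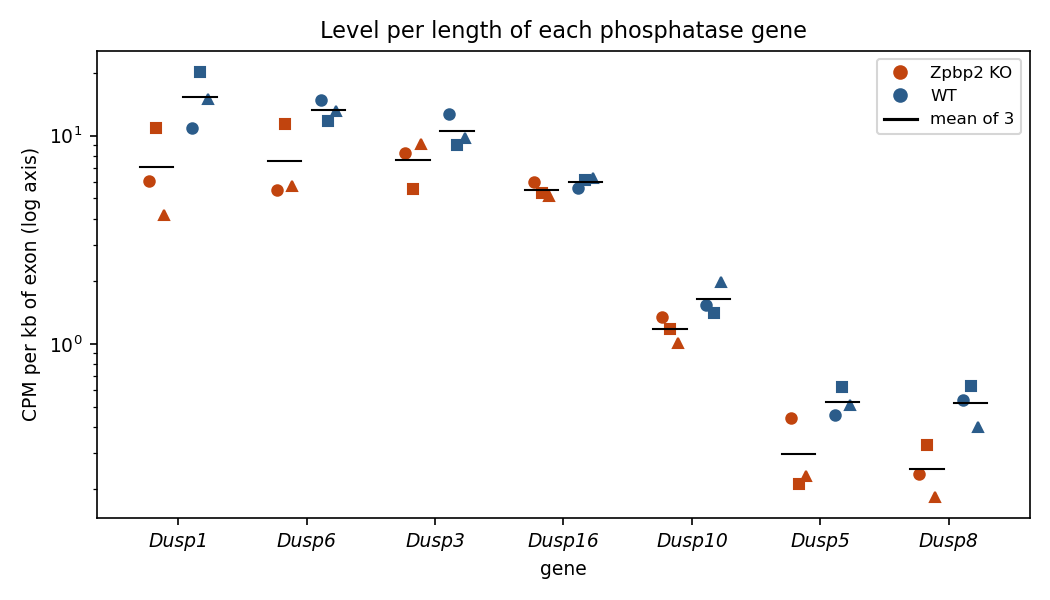
Level of each of the 7 phosphatase genes in CPM per kilobase of exon, on a log axis, with 3 Zpbp2 KO livers left of 3 WT livers and a line at each mean of 3; circles, squares and triangles are replicates 1, 2 and 3. Dusp1, Dusp6, Dusp3 and Dusp16 form the upper range, and Dusp5 and Dusp8 lie lowest with means under 0.53 CPM per kb.

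All 7 genes had a negative log2 fold change between Zpbp2 KO and WT livers, and 0 of them passed edgeR's quasi-likelihood test after adjustment over all 14686 genes. The 7 values had a median of -0.82, beside 0.01 over all tested genes, of which 47.1% lay below 0. At an unadjusted p below 0.05, 6 of the 7 were lower and 0 higher, where 2.93% of all tested genes were lower and 2.86% higher. In 4 of the 7, namely Dusp5, Dusp6, Dusp8 and Dusp10, every Zpbp2 KO library lay below every WT library in CPM, which held for 6.01% of all tested genes, while 0 of the 7 lay wholly above WT (5.56% of all tested genes). The adjusted test called 0.0136% of all tested genes lower, 2 genes, and 0 higher. DESeq2 called 0 of the 7 (0.315% of its genes lower) and limma-voom 0 (0.0136% lower). The 7 genes were put together with earlier results of these data known, so their shared direction carries no independent weight. The 3 mice of a group are separate animals, and each log2 fold change sets Zpbp2 KO over WT and carries the standard error that the test implies. In whole liver, fewer cells of a type and less RNA per cell cannot be told apart.

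The nuclear and inducible enzymes come first. Dusp1 (ENSMUSG00000024190, chromosome 17) encodes MAP kinase phosphatase 1, a nuclear enzyme that acts chiefly on p38 and JNK and that glucocorticoids, cAMP and stress induce. It stood at 20.03, 36.1 and 13.8 CPM in Zpbp2 KO replicates 1 to 3, against 36.0, 66.9 and 49.8 CPM in WT replicates 1 to 3. The groups met at 1 point, as Zpbp2 KO replicate 2 was level with WT replicate 1. The Zpbp2 KO mean of 23.3 ± 11.5 CPM was 0.458 times the WT mean of 50.9 ± 15.5 CPM (SD, n = 3). The log2 fold change was -1.13 ± 0.35 (95% interval -1.93 to -0.33) with adjusted p = 0.718 in edgeR's quasi-likelihood test. DESeq2 came nearer to the threshold, with adjusted p = 0.0602. Exons of Dusp1 share 11 bases with Ergic1 on the opposite strand, and Ergic1 stood at 85.0 ± 2.84 CPM in Zpbp2 KO and 87.9 ± 4.18 CPM in WT livers.

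Dusp5 (ENSMUSG00000034765, chromosome 19) encodes a nuclear phosphatase selective for ERK. It gave few reads, with 52, 24 and 30 counts in Zpbp2 KO replicates 1 to 3 and 59, 82 and 48 in WT replicates 1 to 3. On the CPM scale these were 1.09, 0.526 and 0.575 CPM in Zpbp2 KO livers, against 1.12, 1.53 and 1.26 CPM in WT livers. Zpbp2 KO replicate 1 reached to just below the lowest WT liver, while replicates 2 and 3 lay well below every WT liver. The log2 fold change was -0.84 ± 0.33 (95% interval -1.59 to -0.09), with adjusted p = 0.798 in edgeR's quasi-likelihood test. The antisense gene AC137853.2 shares 547 exon bases with Dusp5 and is not among the 37991 genes counted. With the strand setting unknown, any reads from it cannot be told apart from those of Dusp5.

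Dusp6 (ENSMUSG00000019960, chromosome 10) encodes a cytoplasmic phosphatase that binds and switches off ERK, and its transcript is a common readout of ERK activity. It stood at 17.2, 35.5 and 18.0 CPM in Zpbp2 KO replicates 1 to 3, against 46.5, 37.0 and 41.1 CPM in WT replicates 1 to 3. As for Dusp1, Zpbp2 KO replicate 2 was the highest of its group, here just below the lowest WT liver. The log2 fold change was -0.82 ± 0.27 (95% interval -1.43 to -0.21), with adjusted p = 0.798 in edgeR's quasi-likelihood test. Without Zpbp2 KO replicate 2 it was -1.24, with adjusted p = 0.0647 in edgeR's quasi-likelihood test. With any other single library left out it lay between -0.90 and -0.63, with adjusted p of 0.388 or more in the same test.

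Dusp8, Dusp10 and Dusp16 encode phosphatases that favour JNK and p38 over ERK. Dusp8 (ENSMUSG00000037887, chromosome 7) had 55, 73 and 47 counts in Zpbp2 KO replicates 1 to 3 and 138, 164 and 74 in WT replicates 1 to 3. These were 1.15, 1.6 and 0.900 CPM in Zpbp2 KO livers, against 2.63, 3.06 and 1.94 CPM in WT livers. The groups did not overlap, and the gene had the smallest p of the 7, at rank 106 of all tested genes. Its log2 fold change was -1.07 ± 0.28 (95% interval -1.72 to -0.42), with adjusted p = 0.659 in edgeR's quasi-likelihood test and 0.0800 by DESeq2. Dusp8 shares 66 exon bases with Gm32786 on the opposite strand, which is not among the 37991 genes counted.

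Dusp10 (ENSMUSG00000039384, chromosome 1) stood at 4.10, 3.60 and 3.07 CPM in Zpbp2 KO replicates 1 to 3, against 4.69, 4.28 and 6.05 CPM in WT replicates 1 to 3. The groups did not overlap, though the highest Zpbp2 KO and the lowest WT liver differed little. Its log2 fold change was -0.48 ± 0.20 (95% interval -0.94 to -0.02), with adjusted p = 0.798 in edgeR's quasi-likelihood test. Dusp16 (ENSMUSG00000030203, chromosome 6) was the member with the smallest difference. It stood at 46.6, 41.3 and 39.8 CPM in Zpbp2 KO replicates 1 to 3, against 43.7, 47.5 and 48.6 CPM in WT replicates 1 to 3. The groups overlapped through Zpbp2 KO replicate 1. The log2 fold change was -0.13 ± 0.10, with a 95% interval of -0.36 to 0.10 and adjusted p = 0.817 in edgeR's quasi-likelihood test.

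Dusp3 (ENSMUSG00000003518, chromosome 11), the atypical member, encodes a small phosphatase known to act on ERK and JNK. It stood at 38.5, 26.1 and 42.8 CPM in Zpbp2 KO replicates 1 to 3, against 59.2, 42.3 and 45.8 CPM in WT replicates 1 to 3. The groups overlapped, since Zpbp2 KO replicate 3 lay just above WT replicate 2. The log2 fold change was -0.46 ± 0.20 (95% interval -0.91 to -0.0015), with adjusted p = 0.798 in edgeR's quasi-likelihood test. The antisense gene Gm20659, which shares 604 exon bases with Dusp3, had 7 to 15 counts in a library. Dusp3 is the single member on the chromosome of Zpbp2. In the order of genes along chromosome 11, 208 genes of the table lay between them. Of these, 78 were tested and 0 were called, where 0.0136% of all tested genes were called lower. At an unadjusted p below 0.05, 4 of the 78 were lower and 3 higher, beside 2.93% and 2.86% of all tested genes.

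**Figure D2:**
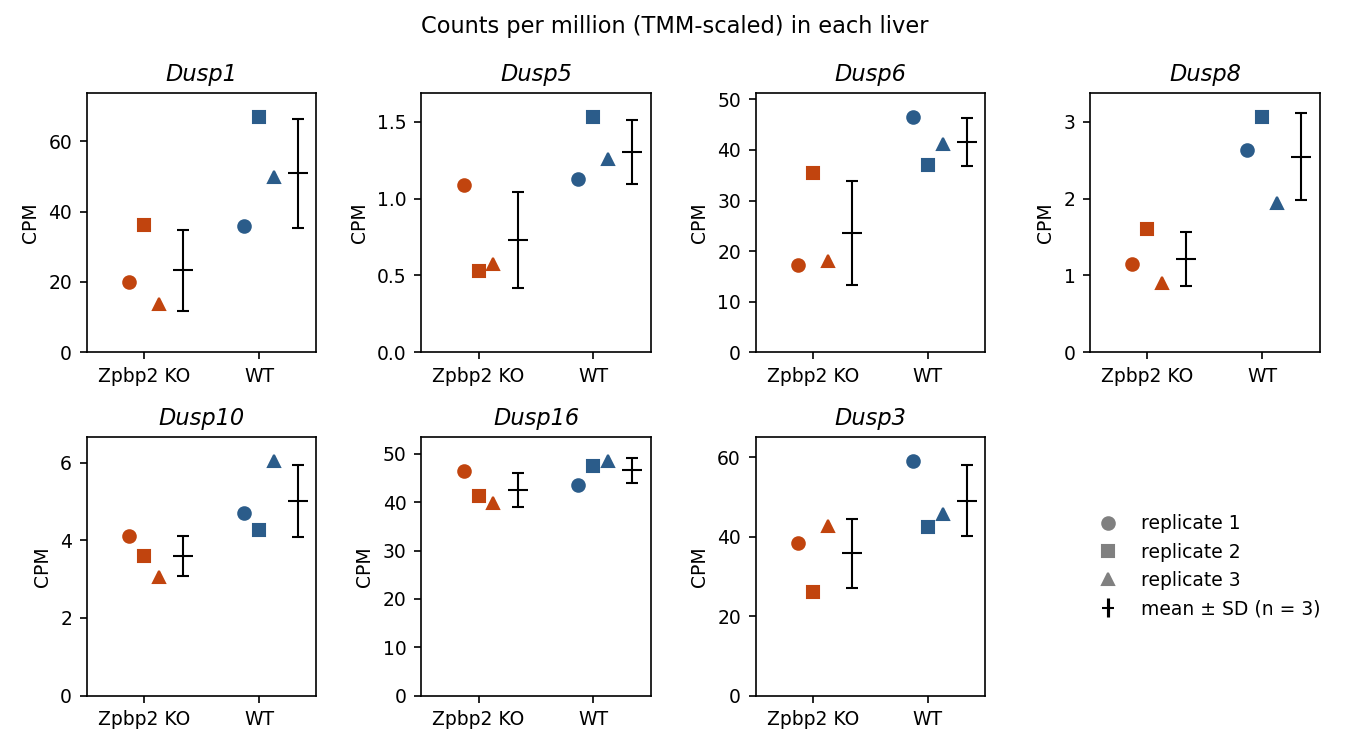
TMM-scaled CPM of each phosphatase gene in each liver, with Zpbp2 KO left of WT in every panel, 1 symbol per replicate number, and the mean ± SD of 3 livers beside them. The groups do not overlap for Dusp5, Dusp6, Dusp8 and Dusp10, though for Dusp5, Dusp6 and Dusp10 the highest Zpbp2 KO liver lies just below the lowest WT liver. Zpbp2 KO replicate 2 is the highest Zpbp2 KO liver for Dusp1, Dusp6 and Dusp8 but the lowest for Dusp3 and, by 24 against 30 counts, for Dusp5.

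The genes did not share 1 pattern over the livers. Zpbp2 KO replicate 2 was the highest liver of its group for Dusp1, Dusp6 and Dusp8, and the lowest for Dusp3 and Dusp5. For Dusp5 that place rests on 24 counts, against 30 in Zpbp2 KO replicate 3, so these 2 livers are hardly told apart. Between centred log2 CPM profiles over the 6 libraries, the root mean square difference was 0.328 for Dusp1 and Dusp8, 0.304 for Dusp6 and Dusp8 and 0.224 for Dusp10 and Dusp16, and of all pairs of the 7 it was largest for Dusp1 and Dusp3, at 0.820. This measure is small for any pair of genes that vary little, and Dusp16 ranged only from 39.8 to 48.6 CPM over the 6 livers. Without Zpbp2 KO replicate 2 the log2 fold change was -1.59 for Dusp1, -1.24 for Dusp6 and -1.32 for Dusp8, but -0.66 for Dusp5 and -0.27 for Dusp3. The count of the 7 genes lower at an unadjusted p below 0.05 was 3 without Zpbp2 KO replicate 2, 3 without Zpbp2 KO replicate 3 and 3 without WT replicate 3, in place of 6.

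**Figure D3:**
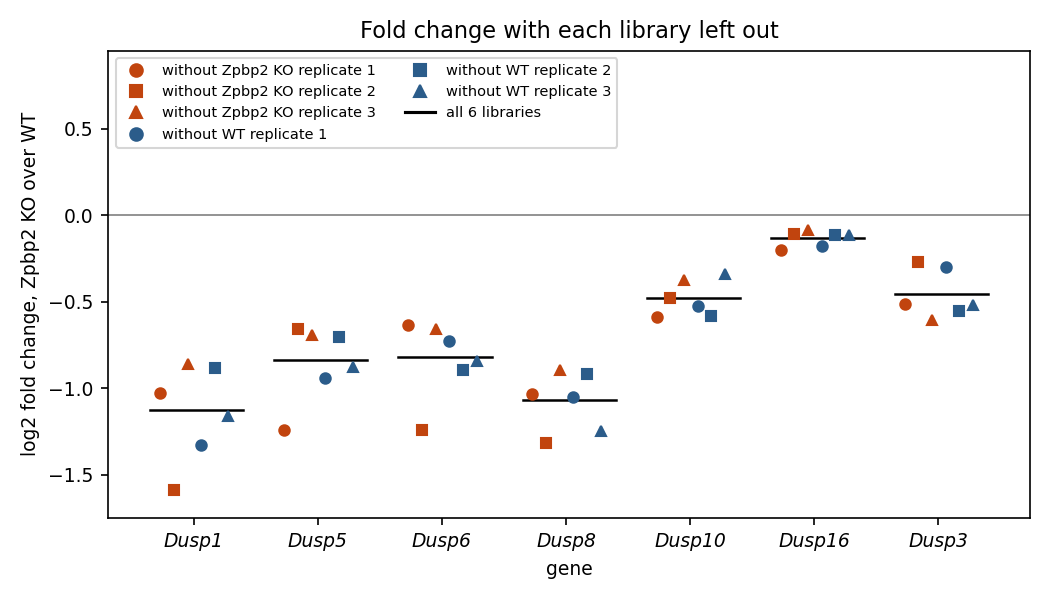
Log2 fold change of each phosphatase gene, Zpbp2 KO over WT, with all 6 libraries (black line) and with each library left out in turn (symbols, Zpbp2 KO libraries in red and WT libraries in blue). Every value lies below 0, and leaving out Zpbp2 KO replicate 2 moves Dusp1 to -1.59 and Dusp3 to -0.27.

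That library also had the lowest marker levels of several other liver cell types. The summed level of 7 Kupffer cell markers was 364, 124 and 389 CPM in Zpbp2 KO replicates 1 to 3 and 306, 252 and 214 CPM in WT replicates 1 to 3, with 0 markers at 0. That of 6 endothelial markers was 263, 103 and 188 CPM in Zpbp2 KO and 231, 159 and 174 CPM in WT livers, also with 0 markers at 0. The 6 stellate cell markers summed to 263, 168 and 248 CPM in Zpbp2 KO and 252, 208 and 238 CPM in WT livers. The 7 hepatocyte markers, Alb among them, summed to 105908 to 110369 CPM in Zpbp2 KO and 93117 to 103494 CPM in WT livers, without overlap. Alb made up most of each sum and by itself overlapped, at 73983 to 76967 CPM in Zpbp2 KO and 66094 to 75168 CPM in WT livers. Of the 7 single markers, 1 lay wholly above WT, beside 5.56% of all tested genes. All 7 had a log2 fold change above 0, with 0 at an unadjusted p below 0.05. Of all 14686 tested genes, 7764 lay above 0. So did every tested Kupffer, T and NK, B cell, neutrophil and erythroid marker named here. Among the other types, 3 of 6 endothelial, 2 of 6 stellate and 4 of 5 cholangiocyte markers lay above 0. Sums ran from 2.65 to 4.60 CPM in Zpbp2 KO and from 2.00 to 3.98 CPM in WT livers for 7 T and NK cell markers, and from 4.17 to 8.45 CPM in Zpbp2 KO and from 3.42 to 5.87 CPM in WT livers for 5 B cell markers. The 6 neutrophil markers, with Ly6g and Mpo at 0 in every library, ran from 2.81 to 5.48 CPM in Zpbp2 KO and from 2.80 to 3.44 CPM in WT livers. The 5 cholangiocyte markers ran from 44.2 to 78.4 CPM and the 5 erythroid markers from 166 to 342 CPM in Zpbp2 KO livers, against 49.9 to 72.8 CPM and 152 to 221 CPM in WT livers. Alas2 made up most of each erythroid sum, averaging 153 ± 26.7 CPM in Zpbp2 KO and 149 ± 19.8 CPM in WT livers. The globins Hbb-bs, Hbb-bt and Hba-a1 had log2 fold changes of 1.29 ± 0.54, 0.89 ± 0.56 and 1.21 ± 0.55, each with overlapping groups. The part of cell makeup in the phosphatase values was not tested.

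Other genes of the family showed no common direction. Of the other typical MAP kinase phosphatases, Dusp4, a nuclear inducible enzyme, stood at 2.28, 1.51 and 1.99 CPM in Zpbp2 KO and 2.97, 2.35 and 3.04 CPM in WT livers, without overlap. Its log2 fold change was -0.53 ± 0.23 (95% interval -1.05 to -0.01), with adjusted p = 0.798 in edgeR's quasi-likelihood test. Dusp7, a cytoplasmic ERK phosphatase related to Dusp6, averaged 5.04 ± 1.66 CPM in Zpbp2 KO and 4.68 ± 1.07 CPM in WT livers, a log2 fold change of 0.10 with a 95% interval of -0.55 to 0.76. Dusp2, an inducible phosphatase of immune cells, averaged 0.428 ± 0.112 CPM in Zpbp2 KO and 0.406 ± 0.244 CPM in WT livers, with a log2 fold change of 0.07 and a 95% interval of -0.96 to 1.09. Dusp9 did not pass the filter, with 5, 1 and 3 counts in Zpbp2 KO and 4, 1 and 3 in WT libraries. Of 15 other atypical phosphatases, 8 were tested and 0 were called, with 0 at an unadjusted p below 0.05, 2 below 0 and a median of 0.11. The smallest p-values among them were those of Dusp14 (0.809 ± 0.329 CPM in Zpbp2 KO and 0.428 ± 0.184 CPM in WT livers, log2 fold change 0.92 ± 0.42) and Dusp23 (15.6 ± 3.14 CPM in Zpbp2 KO and 12.8 ± 0.744 CPM in WT livers, 0.28 ± 0.16).

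**Figure D4:**
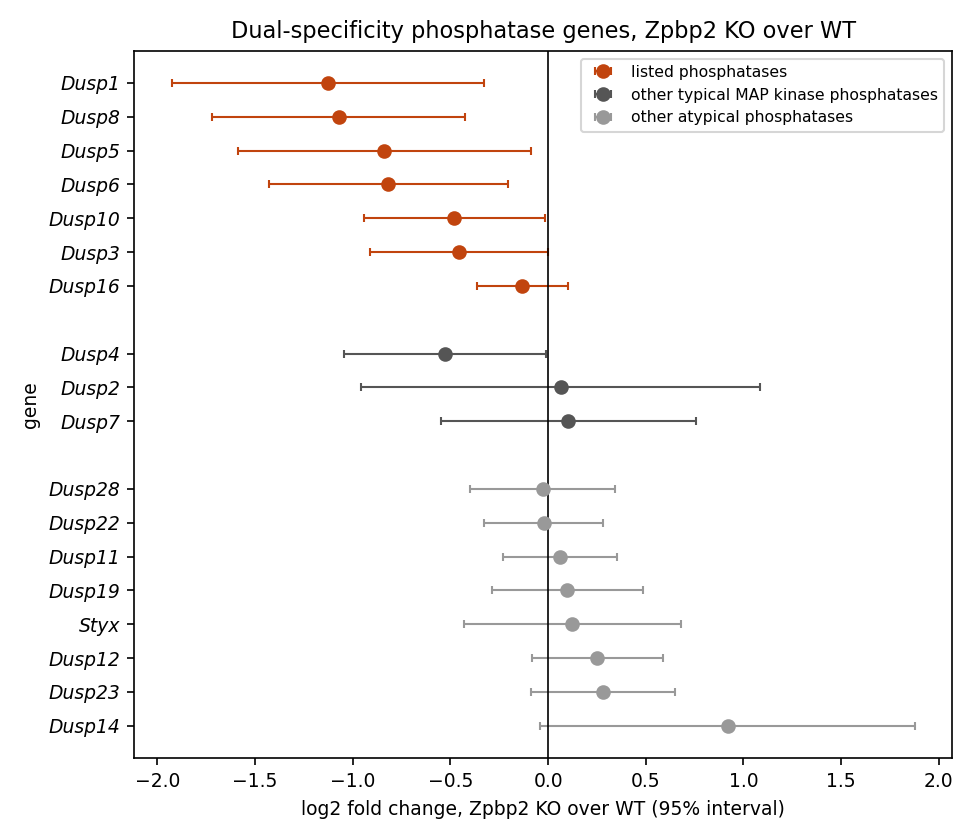
Log2 fold change, Zpbp2 KO over WT, of each tested dual-specificity phosphatase gene with its 95% interval, in 3 blocks for the 7 listed genes, the other typical MAP kinase phosphatases and the other atypical ones. The listed genes run from -1.13 to -0.13, and the other atypical genes from -0.03 to 0.92.

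Of the genes for the kinases that these phosphatases act on, and for the kinases and adaptors above and below them, 0 were called, and single genes ran from -0.80 to 0.70 on the log2 fold change scale. The log2 fold change was below 0 in 10 of 16 tested genes of the ERK cascade, 12 of 18 of the JNK and p38 cascades, 8 of 8 of ERK5 and the atypical MAP kinases, and 8 of 10 MAP kinase-activated kinases, beside 47.1% of all tested genes. Of 16 genes of the ERK cascade 0 were called, with an unadjusted p below 0.05 for 2 lower and 0 higher genes, beside 2.93% and 2.86% of all tested genes, and a median of -0.03. Among its members, Sos1, the exchange factor that loads Ras, averaged 46.0 ± 1.72 CPM in Zpbp2 KO and 54.6 ± 2.31 CPM in WT livers, with a log2 fold change of -0.25 ± 0.09. Of 18 tested genes of the JNK and p38 cascades 0 were called, with 1 lower at an unadjusted p below 0.05 and a median of -0.07. That gene was Map3k1, a kinase above JNK (15.2 ± 2.14 CPM in Zpbp2 KO and 21.5 ± 4.19 CPM in WT livers, -0.50 ± 0.17), followed by Map2k3, a kinase that activates p38 (72.9 ± 1.37 CPM in Zpbp2 KO and 64.0 ± 0.537 CPM in WT livers, 0.19 ± 0.08). The 8 genes of ERK5 and the atypical MAP kinases had a median of -0.13 and the 10 MAP kinase-activated kinases one of -0.12, with 0 at an unadjusted p below 0.05 in either. Mapk4, an atypical MAP kinase, averaged 0.724 ± 0.180 CPM in Zpbp2 KO and 1.26 ± 0.629 CPM in WT livers, and Mapkapk2, a kinase that p38 activates, 71.8 ± 8.38 CPM in Zpbp2 KO and 85.8 ± 7.67 CPM in WT livers. The next smallest p in these lists belonged to Map3k2, a kinase above ERK5, with a log2 fold change of -0.25 ± 0.17, and Rps6ka3, a kinase that ERK activates, with -0.18 ± 0.12. Other ERK inhibitors, such as the Sprouty and Spred genes, had a median of -0.13 over 10 tested genes, and other phosphatases of MAP kinases one of -0.07 over 7, with 0 genes at an unadjusted p below 0.05 in both. Of these, 9 of 10 and 6 of 7 had a log2 fold change below 0. Nf1, a Ras inhibitor, averaged 27.1 ± 2.46 CPM in Zpbp2 KO and 31.5 ± 4.83 CPM in WT livers, and Ppp2r2a, a regulatory subunit of protein phosphatase 2A, 20.8 ± 0.839 CPM in Zpbp2 KO and 22.8 ± 1.71 CPM in WT livers. The other named gene of each list had a positive log2 fold change. Pebp1, an inhibitor of Raf, averaged 119 ± 18.6 CPM in Zpbp2 KO and 105 ± 7.12 CPM in WT livers (0.19 ± 0.13), and Ptpn7, a tyrosine phosphatase of ERK and p38, 0.679 ± 0.229 CPM in Zpbp2 KO and 0.515 ± 0.156 CPM in WT livers (0.40 ± 0.37).

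Transcripts that MAP kinases induce differed more from gene to gene. The counts at an unadjusted p below 0.05 given below stand beside 2.93% lower and 2.86% higher of all tested genes. Of 11 tested ERK-induced transcripts 0 were called by edgeR, 1 was lower at an unadjusted p below 0.05, and the median was -0.07. That gene was Fos, an AP-1 subunit, at 0.920, 0.811 and 0.613 CPM in Zpbp2 KO and 1.35, 2.82 and 2.44 CPM in WT livers. Junb, a partner of Fos, overlapped between the groups with a log2 fold change of -0.25 ± 0.31. Of 10 tested p38- and JNK-linked transcripts 0 were called by edgeR, with an unadjusted p below 0.05 for 3 lower and 2 higher genes and a median of -0.45. The smallest p-values were those of Il1b, an inflammatory cytokine (1.21, 0.899 and 1.70 CPM in Zpbp2 KO and 7.15, 5.81 and 4.95 CPM in WT livers), and Atf3, a stress-induced factor (1.25, 1.32 and 1.05 CPM in Zpbp2 KO livers, against 3.18, 1.94 and 2.75 CPM in WT livers). DESeq2 called Fos, Il1b and Atf3 lower, where it called 0.315% of its genes lower and 0.161% higher. Of 13 glucocorticoid-induced transcripts other than Dusp1 0 were called by edgeR, with an unadjusted p below 0.05 for 1 lower and 1 higher gene and a median of 0.13. Tat, tyrosine aminotransferase, averaged 1135 ± 151 CPM in Zpbp2 KO and 1533 ± 238 CPM in WT livers, and Lcn2, an iron-binding acute phase protein that DESeq2 called higher, 3.52 ± 1.53 CPM in Zpbp2 KO and 1.25 ± 0.527 CPM in WT livers.

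**Figure D5:**
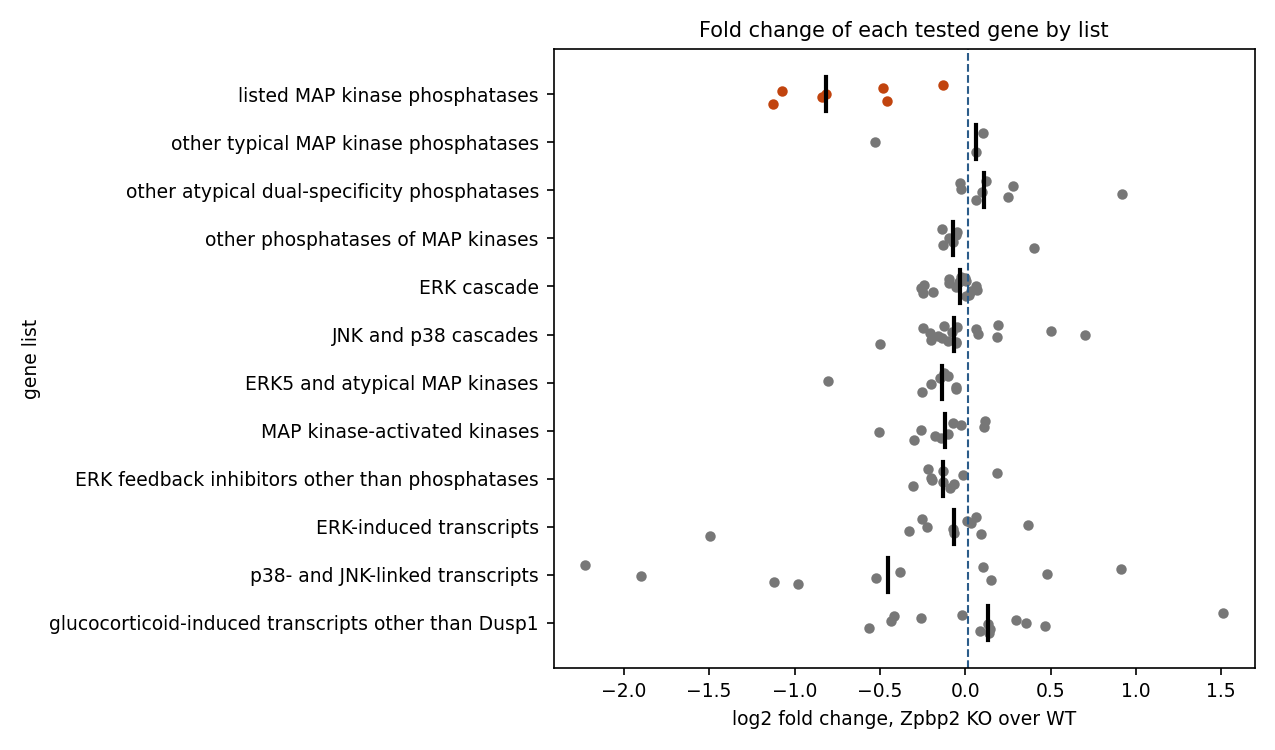
Log2 fold change, Zpbp2 KO over WT, of each tested gene (points) in the 7 listed phosphatases (red) and in 11 lists of related genes (grey), with the median of each list as a bar and the median of all tested genes as a dashed line. The medians of the kinase lists lie between -0.13 and -0.03, that of the listed phosphatases at -0.82 and that of the other typical MAP kinase phosphatases at 0.07. The 7 phosphatases and the lists were put together with earlier results of these data known.

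For the pair of genes with the smallest p, Dusp8 and Dusp1, the most similar profiles over the 6 libraries were sought among 12031 genes outside the Dusp family with a mean of at least 1 CPM. Nearest to Dusp1 were Igfbp1, with a root mean square difference of 0.164 on the log2 scale, Stac3 with 0.199 and Mir17hg with 0.251, beside a deviation of 0.766 of Dusp1 from its own mean. Igfbp1, an insulin-repressed secreted protein that binds insulin-like growth factors, stood at 28.1, 44.2 and 21.5 CPM in Zpbp2 KO and 48.8, 102 and 56.4 CPM in WT livers, and like Dusp1 it was highest in replicate 2 of either group. Nearest to Dusp8 were Ppp1r3c, which brings protein phosphatase 1 to glycogen, with 0.247, Trp53inp1, a p53-induced stress protein, with 0.263, and Igfbp1 with 0.269, beside a deviation of 0.606 of Dusp8 from its own mean. Ppp1r3c stood at 36.8, 59.0 and 47.0 CPM in Zpbp2 KO and 90.3, 116 and 92.5 CPM in WT livers, and Trp53inp1 at 48.5, 71.7 and 51.7 CPM in Zpbp2 KO and 94.7, 109 and 108 CPM in WT livers. Such likeness over 6 libraries of 2 groups is a description.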

How the data were processed

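Poly(A) RNA-seq was done on livers of 3 Zpbp2 KO and 3 WT mice, from 250 ng of total RNA with reads of 100 cycles in pairs, per the labels' protocols. The deposited table holds raw counts per Ensembl gene ID; STAR, Picard, HTSeq and the build mm9 are named per the submitters' processing notes, and their versions, the annotation and the strand setting were not given in the sources used here. Without the strand setting, reads of genes that overlap on opposite strands may be mixed. Each of the 6 columns was matched to its sample by title. Symbols and exon lengths came from GENCODE M21 (GRCm38), and 32919 of 37991 IDs had a symbol; promoters came from RefSeq on GRCm38.p6.

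Genes were kept by filterByExpr with a minimum count of 10, scaled by TMM and tested with edgeR 4.0.16 (quasi-likelihood F-test, R 4.3.3, two-sided, Benjamini-Hochberg over 14686 genes, threshold 0.05). DESeq2 1.42.0, limma-voom (limma 3.58.1) and other scalings, filters and left-out libraries were alternatives. Averaged over genes, sampling noise did not account for the spread within a group (chi-square per gene of 18.7 to 94.9 between its libraries). Genes with many reads weigh most in that average, so it does not speak for single genes with few reads, such as Dusp5 and Dusp8. A count of 0 allows up to 3 counts, 0.0567 to 0.0791 CPM on library totals, for counting error only; depths are given in the report.

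The members and the gene lists were chosen with earlier results of these data known. Named were all members, the other typical phosphatases, from each other list the called genes or at most the 2 with the smallest p, and the 3 profiles most like each of the 2 members with the smallest p (log2 CPM, prior count 2). Igfbp1, Ppp1r3c and Trp53inp1 were named by that rule; Ergic1 was named for its overlap, after its values were seen. Another gene that the rule names is not reported here.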

Additional observations from a re-analysis of the deposited data

How the results depend on the processing

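With each of 14 other settings, 0 of the 7 phosphatase genes were called, and each of the 7 kept a log2 fold change below 0. The lowest and highest values were -1.59 and -0.86 for Dusp1, -1.32 and -0.89 for Dusp8, -1.24 and -0.63 for Dusp6, -1.24 and -0.66 for Dusp5, -0.59 and -0.34 for Dusp10, -0.61 and -0.27 for Dusp3, and -0.20 and -0.09 for Dusp16, all from fits with a library left out. The count of the 7 genes lower at an unadjusted p below 0.05 was 5 or 6 with another tool, scaling or filter, and 3 to 5 with a library left out. Over all genes, 74 were called by DESeq2 and 12 with no filter on low counts, in place of 2, and 2 to 4 with a library left out. The median log2 fold change of all tested genes was 0.01 with TMM, 0.00400 with DESeq2's size factors and -0.02 with library totals. Same-numbered libraries did not deviate from their group means together (correlations 0.142, 0.197 and -0.237), so the numbers were not taken as pairs. With the replicate block, 2 genes were called over all genes, 0 of the 7 were called, and 5 of the 7 were lower at an unadjusted p below 0.05. In that edgeR fit the unadjusted p was smaller than in the main fit for Dusp1, Dusp3, Dusp6 and Dusp8, and larger for Dusp5, Dusp10 and Dusp16. With 3 livers a group, and as few as 24 counts of Dusp5 in a library, differences of the size seen here could be missed. The cause of these shifts was not tested.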

Other observations

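Several genes of the family gave almost no reads in these livers. Dusp13 had 0, 1 and 2 counts in Zpbp2 KO replicates 1 to 3 and 7, 6 and 0 in WT replicates 1 to 3, Dusp26 had 2, 1 and 1 in Zpbp2 KO against 7, 1 and 0 in WT libraries, and Dusp27 had 0 in every Zpbp2 KO library against 8, 0 and 0 in WT libraries. Dusp21 was at 0 in all 6 libraries. Dusp11, an RNA phosphatase and the atypical member with the most reads here, averaged 69.2 ± 9.69 CPM in Zpbp2 KO and 66.3 ± 5.34 CPM in WT livers (SD, n = 3), with a log2 fold change of 0.06 ± 0.13.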
